A study of Homo sapiens with 14 samples.

Results

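The genes described here are 53 that act in mitosis, of 54628 gene symbols counted in each library. They were taken by symbol from a list drawn up with earlier results of these data known, and cover the mitotic cyclins and kinases, the spindle checkpoint, the kinetochore, the kinesins, the spindle, cytokinesis, condensin and the 2 transcription factors FOXM1 and MYBL2. The cells were IMR90, a line of primary human lung fibroblasts, and the study asked how senescent cells sustain a splicing program that involves the chromatin factor CTCF and nuclear speckles. WT cells (2 libraries) were wild type and untreated, and siHMGB2 cells (2 libraries) were untreated with HMGB2 knocked down by siRNA. ICM cells (4 libraries) were wild type and received 10 µM inflachromene for up to 6 days, a small molecule that binds HMGB1 and HMGB2 and brings these fibroblasts into senescence. The siSRRM2, siBANF1 and siCTCF cells (2 libraries each) received the same treatment with SRRM2, BANF1 or CTCF knocked down. The labels name 2 isolates of the line without saying which library came from which, and do not say whether replicates were separate cultures, so p-values measure the spread between these libraries only. The cell-line field of ICM 3, ICM 4 and the siCTCF libraries reads differently from that of the other 10 libraries, so the ICM libraries were kept as ICM 1-2 and ICM 3-4. None of the libraries with a differing cell-line field is WT, so in ICM 3-4 vs WT the treatment and the set of libraries cannot be told apart.

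A cell enters mitosis when CDK1, bound to cyclin A2 or a B-type cyclin, is switched on by CDC25 phosphatases. Chromosomes are then compacted by condensin, attached through the kinetochore to spindle microtubules, held until the checkpoint is satisfied, and separated once CDC20 activates the anaphase-promoting complex (APC/C). Most of these genes are transcribed in late S and G2 phase under MYBL2 and FOXM1 together with the MuvB complex, and the DREAM form of that complex keeps them low in cells that have left the cycle. Senescence is a durable exit from the cell cycle, and MKI67 and TOP2A are in common use as markers of dividing cells.

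The library labels were checked first on the targeted genes, in CPM, which scales each gene's count by the gene counts of its library. HMGB2 had 27.7 and 28.01 CPM in WT against 3.18 and 3.52 CPM after its knockdown. For CTCF, ICM 3 and 4 had 94.9 and 91.9 CPM, and siCTCF had 71.5 and 23.0 CPM. SRRM2 went from 238 and 112 CPM (ICM 1-2) to 76.1 and 76.4 CPM where siSRRM2 was the label, and to 59.0 and 17.0 CPM where siBANF1 was the label. BANF1 had 13.5 and 32.7 CPM in ICM 1-2, then 34.2 and 33.3 CPM under the label siSRRM2 and 17.0 and 36.7 CPM under the label siBANF1. BANF1 in the libraries labelled for its knockdown thus overlapped ICM 1-2, and SRRM2 was lowest there. The names of the deposited files also exchange these 2 knockdowns relative to the sample labels. The labels were followed, a swap of the 2 groups was not settled, and every value given for them rests on the labels. Library sizes were 33561766 to 41168932 gene counts in WT and siHMGB2, 39435430 to 58257456 in ICM 1-2 with the libraries labelled siSRRM2 and siBANF1, and from 22336161 up to 26779027 for ICM 3-4 with siCTCF. The 10 fibroblast markers summed to 23113 to 30799 CPM in WT, 4829 to 18438 CPM in ICM 1-2 and 2440 to 4894 CPM in ICM 3-4, and none of them was at 0. The 7 epithelial markers summed to at most 1.63 CPM in any library, with 4 to 6 of them at 0 in each group. The 5 endothelial markers, of which CDH5 was at or near 0 and TEK made up nearly all, summed to 69.0 to 83.3 CPM in WT, 68.2 to 243 CPM in ICM 1-2 and 2.96 to 15.7 CPM in ICM 3-4. The 6 leukocyte markers, of which CD3E was at 0 and CD68 made up most, summed to 40.0 to 40.6 CPM in WT, 59.1 to 95.9 CPM in ICM 1-2 and 96.1 to 105 CPM in ICM 3-4.

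The promoters of the mitotic genes share short sequence elements. RefSeq promoter windows (GRCh38.p14, 250 bases before to 50 after a start) were matched by symbol for 44 of the 53 genes, as 52 windows. The element TTTGAA, a form of the cell cycle genes homology region to which MuvB binds, stood on either strand in 34 of 52 windows (65.4%), against 15.2% of all 35116 promoter windows. CCAAT, the box of the NF-Y factor, stood on either strand in 65.4% of the windows against 34.6% of all, and both stood together in 48.1% against 5.9%. The promoters of 6 genes are shown to set genes far below WT in ICM beside genes nearer to it. CDC20, PLK1 and MKI67 were at most at 9.06%, 10.2% and 3.04% of WT in any ICM library, and KIF11, ECT2 and NCAPD2 reached 75.6%, 105% and 60% of WT in at least 1 of them. Each stretch is the last 150 bases before the start, on the strand of the gene, with TTTGAA and CCAAT (or their reverse complements TTCAAA and ATTGG) in capitals.
CDC20: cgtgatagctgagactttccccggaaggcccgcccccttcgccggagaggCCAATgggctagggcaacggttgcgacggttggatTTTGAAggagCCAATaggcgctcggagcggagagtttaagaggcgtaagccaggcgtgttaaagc
PLK1: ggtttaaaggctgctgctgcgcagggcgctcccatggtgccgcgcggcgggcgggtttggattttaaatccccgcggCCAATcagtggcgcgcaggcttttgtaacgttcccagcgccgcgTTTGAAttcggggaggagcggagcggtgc
MKI67: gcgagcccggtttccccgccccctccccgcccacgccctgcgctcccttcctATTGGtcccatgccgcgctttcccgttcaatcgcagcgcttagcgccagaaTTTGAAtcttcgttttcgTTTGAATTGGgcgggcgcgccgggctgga
KIF11: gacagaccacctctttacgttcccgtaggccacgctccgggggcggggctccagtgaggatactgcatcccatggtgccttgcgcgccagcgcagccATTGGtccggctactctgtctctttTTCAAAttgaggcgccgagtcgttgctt
ECT2: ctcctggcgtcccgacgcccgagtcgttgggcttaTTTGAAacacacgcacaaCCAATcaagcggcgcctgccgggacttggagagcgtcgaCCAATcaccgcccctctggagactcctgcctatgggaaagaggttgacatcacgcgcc
NCAPD2: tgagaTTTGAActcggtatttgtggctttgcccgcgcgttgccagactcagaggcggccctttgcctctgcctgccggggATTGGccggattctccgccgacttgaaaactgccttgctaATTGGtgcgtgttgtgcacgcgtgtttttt
They lie at chr1:43358831-43358980, chr16:23678739-23678888, chr10:128126424-128126573, chr10:92592980-92593129, chr3:172750576-172750725 and chr12:6493952-6494101, in that order, with MKI67 on the minus strand and the others on the plus strand. TTTGAA begins 65 bases before the start in CDC20 and 29 bases before it in PLK1. MKI67 holds it at 47 and at 29 bases before the start, and the second copy overlaps an ATTGG. KIF11 holds TTCAAA at 28 bases before the start, a place like that in PLK1. In ECT2 and NCAPD2 the element lies farther out, 115 and 145 bases before the start. ECT2 has 2 windows, of which the first by coordinate is shown. The 6 genes were picked by their level in ICM, and whether distance goes with level was not tested. Genes with and without the element were called at like shares: with it, 23 of 30 tested genes were called lower in ICM 1-2 vs WT (median log2 fold change -3.86), and without it, 10 of 13 (median -2.83). In ICM 3-4 vs WT the medians were -4.11 and -4.18. A match describes the letters and is not a site.

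Most of the mitotic genes fell in ICM. Their CPM values summed to 851 and 917 in WT, to 164 and 273 in ICM 1 and 2, and to 149 and 239 in ICM 3 and 4. The 4 ICM libraries thus all lay below both WT libraries. Of the 52 genes that passed the filter on low counts, the median gene stood at 5.53%, 11.2%, 5.10% and 8.39% of its WT mean in ICM 1, 2, 3 and 4. Calls rest on edgeR's quasi-likelihood test, fitted to 19126 genes in all 14 libraries, with a threshold of 0.05 on the Benjamini-Hochberg adjusted p. In ICM 1-2 vs WT, 40 of the 52 genes were called lower and 0 higher, while 13.5% of all genes were called, 6.87% as lower and 6.63% as higher. Their median log2 fold change was -3.73, against 0.10 for all genes tested. In ICM 3-4 vs WT, 44 were called lower and 0 higher, while 30.3% of all genes were called, 16% as lower and 14.3% as higher. The median log2 fold change was -4.13, or -4.05 with 2 genes without counts in ICM 3-4 set to their bounds, against -0.02 for all genes.

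**Figure D1:**
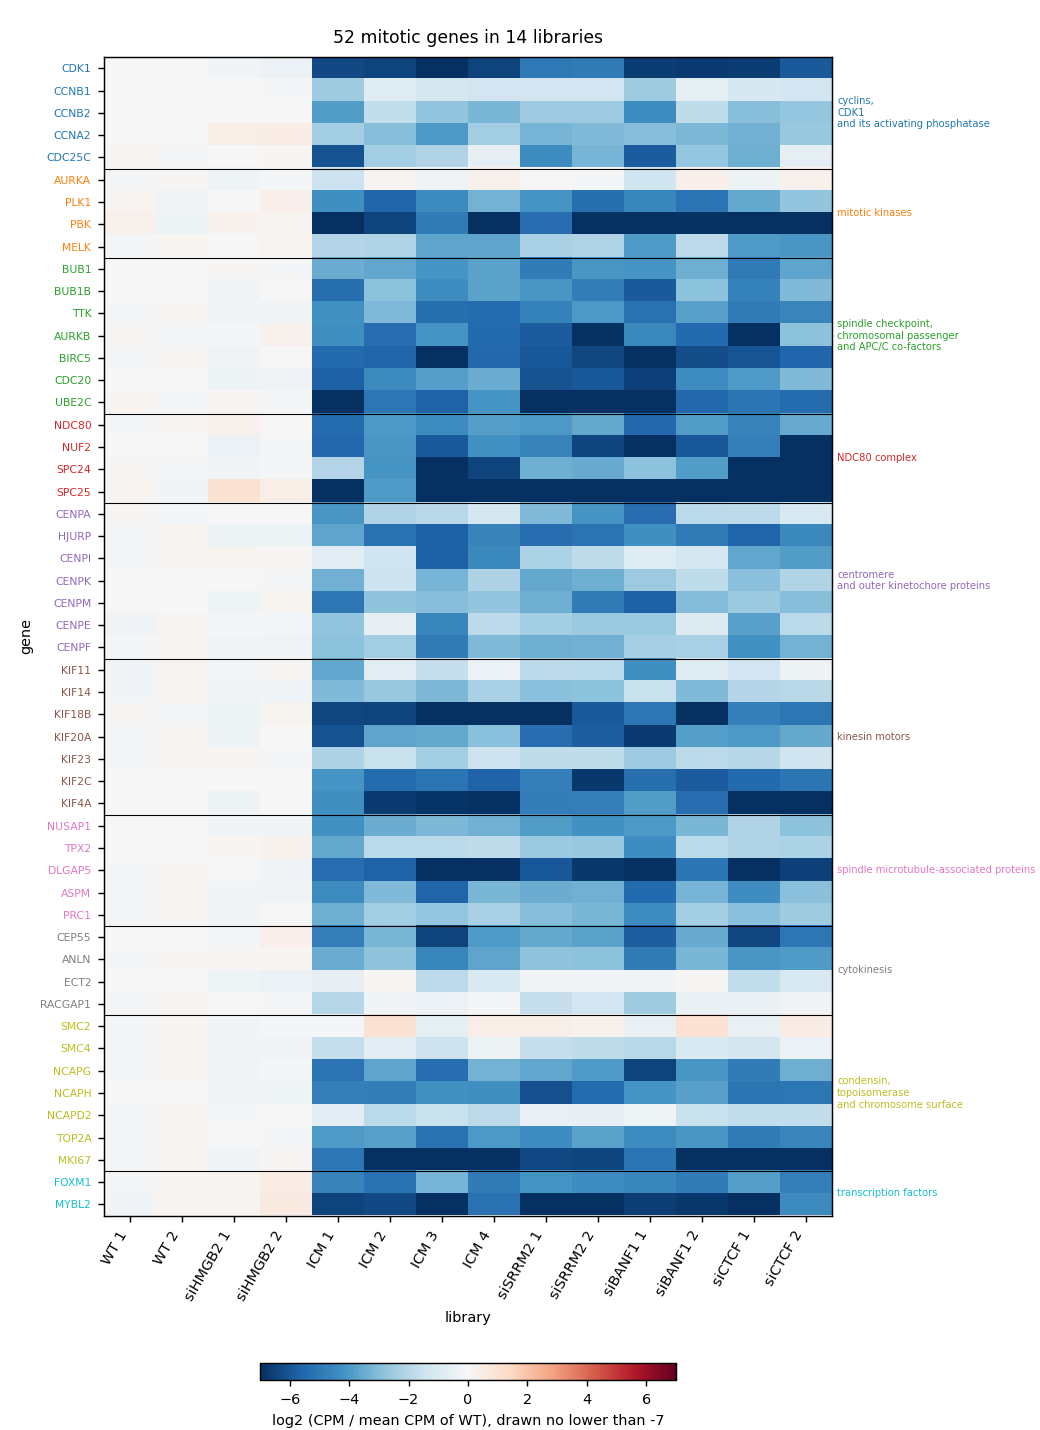
Level of 52 mitotic genes (vertical axis, grouped and coloured by role) in each of 14 libraries (horizontal axis), as the log2 ratio of CPM to the mean of the 2 WT libraries, drawn no lower than -7. WT and siHMGB2 are near 0 throughout, and the 10 libraries of treated cells are low for most genes, with AURKA, ECT2, RACGAP1 and SMC2 near 0 in several of them.

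The number of calls depended on the libraries fitted. With ICM 1-2 and WT fitted alone, 5 genes were called (BIRC5, CDK1, DLGAP5, MYBL2 and TOP2A) while 0.173% of all genes were, the median log2 fold change was -3.69, and 44 genes had an unadjusted p under 0.05. With ICM 3-4 and WT fitted alone, 48 genes were called while 47% of all genes were. Of these, CCNB1 (adjusted p = 0.00111), CENPA (0.00806), SMC4 (0.0282) and KIF11 (0.0436) were not called in the fit of all libraries. Fewer dividing cells and less RNA per cell cannot be told apart in bulk RNA. Fibroblast markers moved with the same comparisons, with 1 of 10 called lower in ICM 1-2 vs WT (COL1A1, log2 fold change -3.24) and 8 of 10 in ICM 3-4 vs WT. Their part in the result was not tested.

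**Figure D2:**
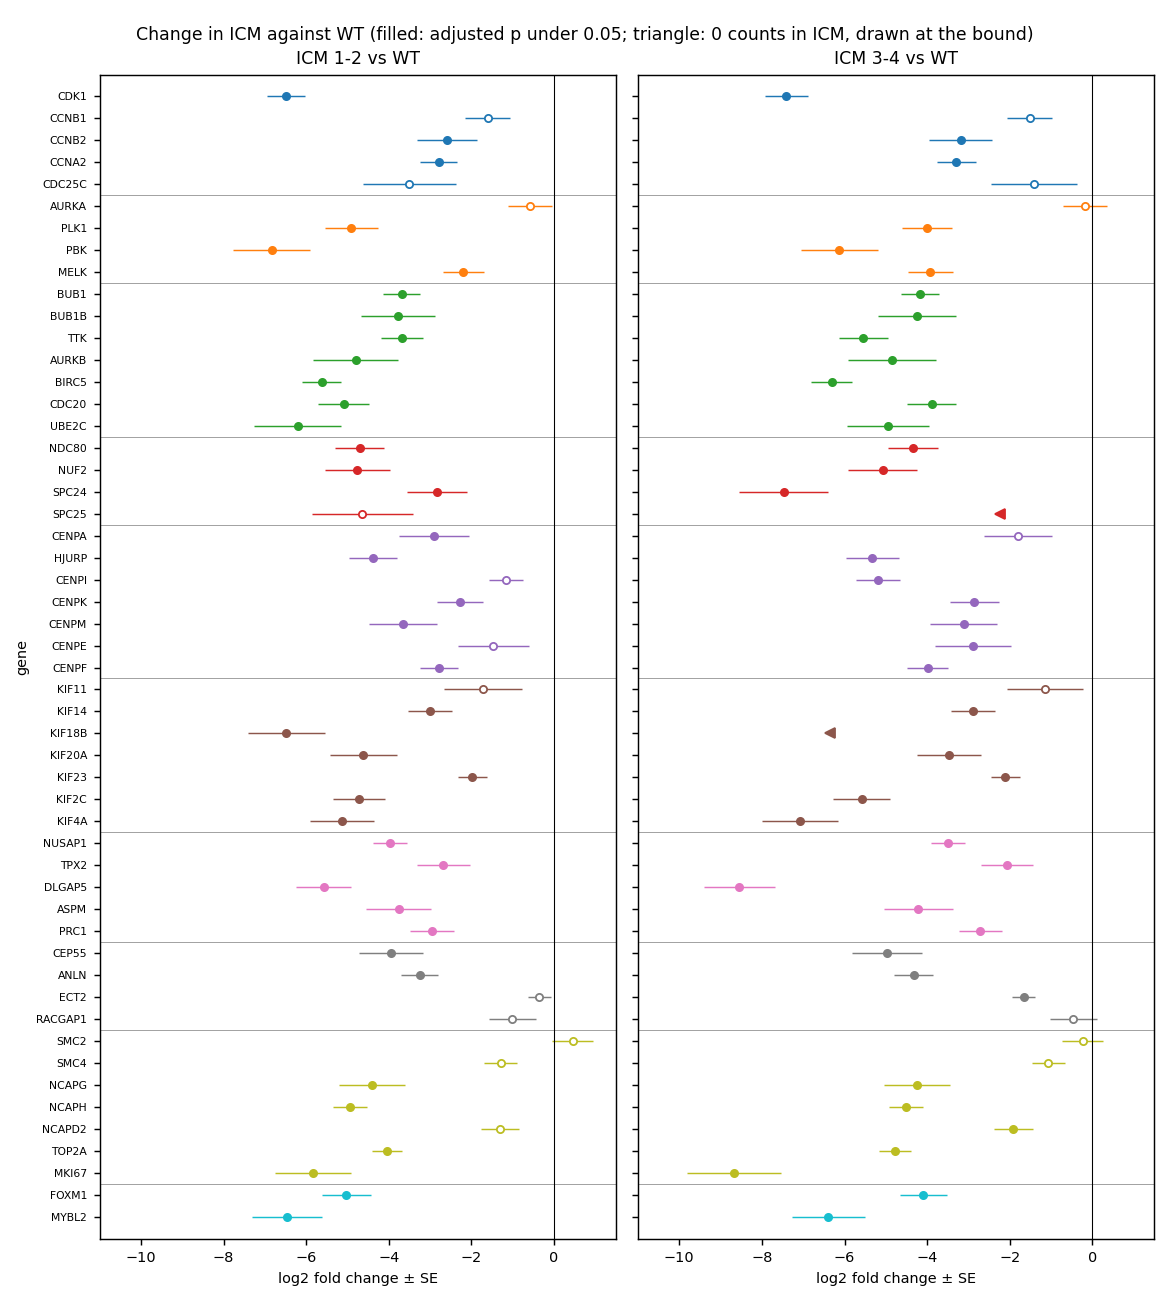
Log2 fold change with its standard error (horizontal axis) of 52 mitotic genes (vertical axis, coloured by role) in ICM 1-2 vs WT (left) and ICM 3-4 vs WT (right). Filled points passed an adjusted p of 0.05, and triangles mark genes with 0 counts in ICM, drawn at the bound that 3 counts allow. Most genes lie below -2 in both panels, with ECT2, SMC2 and AURKA closest to 0 on the left and AURKA, SMC2 and RACGAP1 on the right.

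Among the 5 genes of the cyclins, CDK1 and its phosphatase, 3 were called lower in each comparison, CDK1 among them and cyclin B1 not. CDK1, the kinase that drives entry into mitosis (GENCODE v29, chr10:60778331-60794852, plus strand), was at 18.1 and 17.4 CPM in WT and 15.7 and 13.3 CPM in siHMGB2. It was at 0.225, 0.203, 0.0418 and 0.197 CPM in ICM 1, 2, 3 and 4. All ICM values were thus at most 1.27% of the WT mean, with no overlap, and the log2 fold change was -6.49 (SE 0.47, adjusted p = 4.59e-05) in ICM 1-2 and -7.41 (SE 0.52, adjusted p = 8.72e-05) in ICM 3-4. CCNB1, its cyclin B1 partner (chr5:69167010-69178245, plus strand), was at 25.1 and 25.6 CPM in WT, against 4.45, 14.2, 10.8 and 10.1 CPM in ICM 1 to 4. CCNB1 lay below WT in each ICM library but ICM 1 was lower than the other 3, and its log2 fold changes of -1.61 (SE 0.54, adjusted p = 0.0713) and -1.52 (SE 0.54, adjusted p = 0.0537) missed the threshold in the fit of all libraries. CCNB2 and CCNA2, the cyclins B2 and A2, were called lower in both comparisons, with log2 fold changes of -2.59 and -2.79 in ICM 1-2 and of -3.19 and -3.29 in ICM 3-4. CDC25C, an activating phosphatase of CDK1, was at 3.07 and 2.61 CPM in WT, against 0.0410, 0.516, 0.669 and 1.89 CPM in ICM 1 to 4. Its ICM libraries spread widely, and it was called in neither comparison.

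The mitotic kinases differed among themselves. PLK1, polo-like kinase 1, was at 14.7 and 10.8 CPM in WT, against 0.656, 0.258, 0.586 and 1.30 CPM in ICM 1 to 4. PBK, a kinase of proliferating cells, was at 7.75 and 4.91 CPM in WT, against 0.0410, 0.0737, 0.209 and 0 CPM in ICM 1 to 4, and its log2 fold change of -6.84 (SE 0.94, adjusted p = 0.00254) was the lowest of the 52 in ICM 1-2 vs WT. Both were called lower in both comparisons, as was MELK, with log2 fold changes of -2.20 and -3.92. AURKA, the Aurora kinase of centrosomes and spindle poles, was at 15.1 and 16.5 CPM in WT, against 5.61, 18.0, 13.6 and 19.7 CPM in ICM 1 to 4. Its ICM libraries lay on both sides of WT, and its log2 fold changes were -0.59 (SE 0.53) and -0.18 (SE 0.53), the latter turning to 0.07 when counts were scaled to library totals.

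The 7 genes of the spindle checkpoint, the chromosomal passenger complex and the APC/C co-factors were called lower in both comparisons, with log2 fold changes of -6.21 to -3.69 in ICM 1-2 and of -6.31 to -3.89 in ICM 3-4. CDC20, the co-activator of the APC/C, was at 21.5 and 21.1 CPM in WT, at 16.6 and 18.2 CPM in siHMGB2, and at 0.410, 0.976, 1.46 and 1.93 CPM in ICM 1 to 4. Its highest ICM library was at 9.06% of the WT mean. BIRC5 (survivin, of the passenger complex) was at 16.9 and 18.4 CPM in WT, against at most 0.410 CPM in ICM. UBE2C, the ubiquitin-conjugating enzyme of the APC/C, was at 13.7 and 11.3 CPM in WT, against 0, 0.368, 0.251 and 0.710 CPM in ICM 1 to 4. BUB1, BUB1B and TTK, kinases or kinase-like proteins of the checkpoint, and AURKB, the passenger kinase, were called with log2 fold changes of -3.69, -3.78, -3.69 and -4.80 in ICM 1-2.

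Of the 4 genes of the NDC80 complex, which grips the microtubule at the kinetochore, 3 were called lower in ICM 1-2 and 4 in ICM 3-4, and of 7 centromere and outer kinetochore proteins 5 and 6 were. NUF2 was at 7.45 and 7.52 CPM in WT, against 0.164, 0.442, 0.125 and 0.394 CPM in ICM 1 to 4, and NDC80 itself was at 6.35 and 7.60 CPM in WT, against 0.164 to 0.473 CPM in ICM. Both lay far below WT in each ICM library, with log2 fold changes of -4.76 and -4.70 in ICM 1-2. SPC24 was at 3.81 and 3.29 CPM in WT, at 0.861 and 0.203 CPM in ICM 1 and 2, then 0 and 0.0394 CPM in ICM 3 and 4. With 1 count in ICM 3-4 against 248 in WT, its ratio was 175, with a 95% Clopper-Pearson interval of 31 to 6920 that covers counting error only. SPC25 was at or under 0.592 CPM in all libraries, so that its fall, at least 4.69-fold in ICM 3-4 (0 against 20 counts), rests on few reads. Among centromere and outer kinetochore proteins, CENPF was at 33.5 and 37.0 CPM in WT, against 4.82, 6.50, 1.17 and 4.18 CPM in ICM 1 to 4, with log2 fold changes of -2.78 and -3.99. Called lower in both comparisons were also HJURP, the chaperone that loads CENPA, and CENPK and CENPM of the inner kinetochore. CENPA, the histone of centromeres, was called in ICM 1-2 (log2 fold change -2.92) and stood at -1.79 (SE 0.82, adjusted p = 0.116) in ICM 3-4. With the compared libraries fitted alone its calls were the other way round, with adjusted p-values of 0.149 in ICM 1-2 and 0.00806 in ICM 3-4. CENPE, a kinetochore motor, and CENPI were called in ICM 3-4 with log2 fold changes of -2.90 and -5.20 and at -1.48 (SE 0.86) and -1.17 (SE 0.41) in ICM 1-2.

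Of the 8 kinesins, 6 were called lower in both comparisons. KIF18B, a motor that shortens microtubule plus ends (chr17:44924709-44947711, minus strand), was at 5.36 and 4.66 CPM in WT, at 0.0615 and 0.0553 CPM in ICM 1 and 2, then 0 in ICM 3 and 4. Against 350 counts in WT, the absence of counts in ICM 3-4 gives a level at least 82.1-fold lower, taking 3 counts over both libraries as the floor. KIF23, which with RACGAP1 forms the centralspindlin complex, was at 23.6 and 28.9 CPM in WT, against 5.88, 8.88, 4.98 and 9.50 CPM in ICM 1 to 4. It fell least of the called kinesins, with log2 fold changes of -1.98 (SE 0.35, adjusted p = 0.00625) and -2.12 (SE 0.35, adjusted p = 0.0027). KIF4A, KIF2C, KIF20A and KIF14 fell with log2 fold changes of -5.13, -4.73, -4.62 and -2.999 in ICM 1-2. KIF11, the motor that pushes the spindle poles apart, was at 13.4 and 17.4 CPM in WT, against 1.25, 9.38, 5.02 and 11.7 CPM in ICM 1 to 4. Its ICM libraries lay below WT but ICM 1 was far below ICM 4, and it was called in neither comparison in the fit of all libraries. KIF15 had 1 count in the 14 libraries together and was left out by the filter.

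The 5 spindle microtubule-associated proteins were called lower in both comparisons. PRC1, which bundles microtubules of the central spindle, was at 28.04 and 31.4 CPM in WT, against 2.77, 5.80, 4.52 and 6.27 CPM in ICM 1 to 4, with log2 fold changes of -2.95 (SE 0.53) and -2.71 (SE 0.52). DLGAP5, which stabilises spindle fibres, was at 12.9 and 14.6 CPM in WT, against 0.348, 0.276, 0 and 0.0788 CPM in ICM 1 to 4. Its ratio in ICM 3-4, with 2 counts against 967 in WT, was 340 (95% Clopper-Pearson interval 94 to 2810). TPX2, an activator of AURKA, fell least, with log2 fold changes of -2.68 and -2.07, and ASPM and NUSAP1 had log2 fold changes of -3.76 and -3.97 in ICM 1-2. Exons of PRC1 and NUSAP1 share 58.4% and 62.2% of their bases with other genes of the annotation, and without a stated strand setting those reads cannot be assigned with certainty.

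The cytokinesis genes were divided. ANLN, the scaffold of the contractile ring, was at 36.4 and 42.4 CPM in WT, against 3.57, 5.60, 1.67 and 3.00 CPM in ICM 1 to 4, with log2 fold changes of -3.25 (SE 0.45, adjusted p = 0.0019) and -4.33 (SE 0.48, adjusted p = 0.000477). CEP55, which recruits the abscission machinery, fell by 3.95 and 4.98 on the log2 scale. ECT2, the exchange factor that activates RhoA at the cell equator, was at 36.4 and 37.0 CPM in WT, at 24.96 and 38.7 CPM in ICM 1 and 2, then 10.2 and 17.5 CPM in ICM 3 and 4. ICM 2 was thus above WT and ICM 3 and 4 below it, and the log2 fold changes were -0.35 (SE 0.28, adjusted p = 0.413) and -1.66 (SE 0.29, adjusted p = 0.00309). RACGAP1 was at 15.9 and 19.4 CPM in WT, against 4.34, 15.4, 13.5 and 16.8 CPM in ICM 1 to 4, with ICM 1 apart from the others, and was called in neither comparison.

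Condensin was divided. SMC2 and SMC4 form the ring shared by condensin I and II, and NCAPD2, NCAPG and NCAPH are specific to condensin I. SMC2 (chr9:104094260-104141417, plus strand) was at 19.99 and 24.0 CPM in WT, 19.6 and 20.8 CPM in siHMGB2, and 21.0, 46.2, 13.8 and 30.8 CPM in ICM 1 to 4. Its ICM libraries lay on both sides of WT, and its log2 fold changes of 0.45 (SE 0.50) and -0.24 (SE 0.50) had no steady sign: the first became -0.12 without ICM 2, and the second became 0.19 without ICM 3 and 0.02 with counts scaled to library totals. SMC4 was at 58.7 and 65.0 CPM in WT, against 19.4, 36.7, 22.4 and 48.1 CPM in ICM 1 to 4, below WT in each library, with log2 fold changes of -1.30 (SE 0.40, adjusted p = 0.0547) and -1.07 (SE 0.40, adjusted p = 0.0626), the latter called with ICM 3-4 and WT fitted alone. NCAPD2 was at 55.9 and 60.5 CPM in WT, against 34.9, 15.7, 19.8 and 16.6 CPM in ICM 1 to 4, with log2 fold changes of -1.31 (SE 0.46, adjusted p = 0.0838) and -1.91 (SE 0.47, adjusted p = 0.014). NCAPG was at 12.8 and 13.9 CPM in WT, against 0.369, 1.03, 0.335 and 1.34 CPM in ICM 1 to 4, and NCAPH at 6.29 and 6.31 CPM in WT, against 0.225, 0.221, 0.335 and 0.315 CPM. Both fell to at most 10.1% of WT, with log2 fold changes of -4.40 and -4.93 in ICM 1-2. Exons of SMC4 and NCAPG share 25.6% and 33.1% of their bases with other annotated genes. Condensin II was like the ring subunits in part: NCAPD3 and NCAPH2 stood at -0.25 and 0.08 in ICM 1-2 and at -0.35 and 0.04 in ICM 3-4, while NCAPG2 stood at -1.36 (SE 0.58, adjusted p = 0.138) and was called at -3.70 (SE 0.64, adjusted p = 0.00329).

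TOP2A, the topoisomerase that untangles sister chromatids, was at 58.9 and 64.3 CPM in WT, at 62.2 and 55.0 CPM in siHMGB2, and at 3.87, 4.38, 1.63 and 3.74 CPM in ICM 1 to 4. MKI67, the Ki-67 protein that coats mitotic chromosomes (chr10:128096659-128126385, minus strand), was at 32.7 and 38.8 CPM in WT, 30.5 and 37.8 CPM in siHMGB2, and 1.09, 0.258, 0.0418 and 0.158 CPM in ICM 1 to 4. Both were far below WT in each ICM library, with log2 fold changes of -4.03 and -5.83 in ICM 1-2 and of -4.77 and -8.67 in ICM 3-4. Both transcription factors were called lower in both comparisons. FOXM1 was at 11.9 and 12.9 CPM in WT, against 0.492, 0.332, 1.30 and 0.394 CPM in ICM 1 to 4, and MYBL2 at 6.41 and 8.18 CPM in WT, against 0.0820, 0.0921, 0 and 0.197 CPM. Their log2 fold changes were -5.03 (SE 0.60, adjusted p = 0.000977) and -6.47 (SE 0.85, adjusted p = 0.00154) in ICM 1-2.

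**Figure D3:**
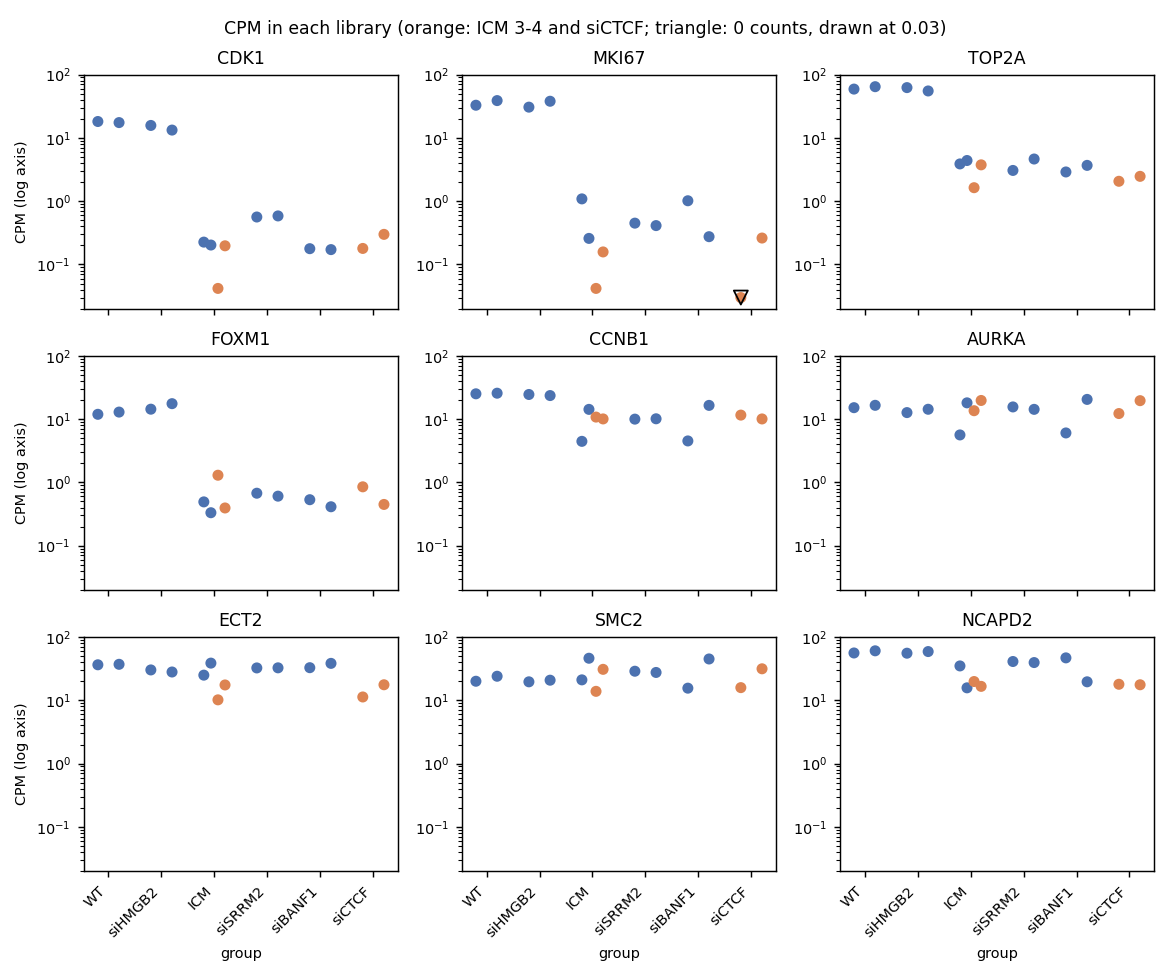
CPM on a log axis (vertical) of 9 mitotic genes in each library, by group (horizontal), with ICM 3-4 and siCTCF in orange, the other libraries in blue and a library with 0 counts drawn as a triangle at 0.03. CDK1, MKI67, TOP2A and FOXM1 are well below WT in all libraries of treated cells, whereas AURKA, ECT2 and SMC2 reach the WT level in some of them.

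A set of 11 genes was above 50% of the WT mean in at least 1 ICM library, a cut-off chosen after the values were seen and given without a test. They were CCNB1, CDC25C, AURKA, CENPI, CENPE, KIF11, ECT2, RACGAP1, SMC2, SMC4 and NCAPD2. SMC2 alone was above 50% in all 4 ICM libraries, from 63% to 210% of WT, and AURKA and RACGAP1 were above it in 3. The set is not one of retained genes throughout: CDC25C, CENPI, CENPE and KIF11 were as low as 1.44%, 1.87%, 4.27% and 8.1% of WT in another ICM library. These 11 genes made up 30.5% and 31.4% of the summed CPM of the 53 in WT. They made up 73.4%, 75.4%, 73.9% and 74% in ICM 1, 2, 3 and 4. The genes were picked by their level in these same ICM libraries, so a larger share there follows from the choice. At the other end, 19 genes were under 10% of WT in each of the 4 ICM libraries, and 22 were between these limits. Per kilobase of exon, the order of levels changed too: CDC20, CCNB1 and UBE2C were highest in WT, at 10.5, 9.91 and 9.71 CPM per kilobase. In ICM 1-2 these stood at 0.340, 3.65 and 0.143, below ECT2 at 5.78 and SMC2 at 5.19 CPM per kilobase, 2 genes that stood at 6.67 and 3.40 in WT. In ICM 3-4 the order was another: AURKA was highest at 5.67 CPM per kilobase, and CCNB1 at 4.07 stood above SMC2 at 3.45 and ECT2 at 2.51.

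**Figure D4:**
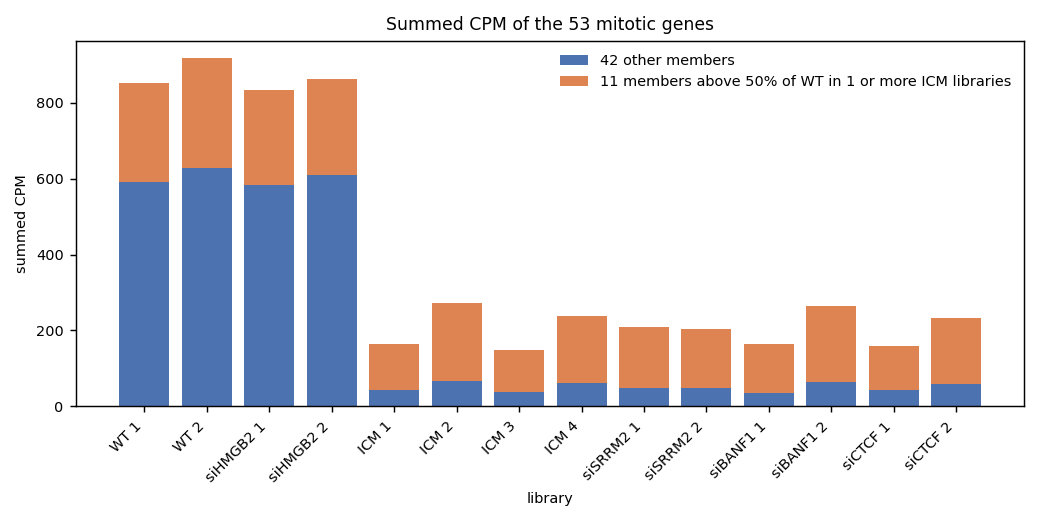
Summed CPM of the 53 mitotic genes (vertical axis) in each library (horizontal axis), divided into the 11 genes above 50% of WT in at least 1 ICM library and the 42 others. The bars are 835 to 917 high in WT and siHMGB2 and 149 to 273 high in the treated libraries. The 11 genes, picked by their level in the ICM libraries, make up 72.2% to 79.1% of the height there.

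Related gene lists were counted in the same fit, in which 6.87% of all genes were called lower and 6.63% higher in ICM 1-2 vs WT, and 16% and 14.3% in ICM 3-4 vs WT. Against these shares, the 1 or 2 genes called in each of the APC/C, gamma-tubulin ring and MuvB lists in ICM 1-2 are not read as a result about those lists. Of 44 further genes of cell-cycle-regulated mitotic proteins, 42 were tested, and 23 were called lower and 0 higher in ICM 1-2 vs WT (median log2 fold change -1.90). In ICM 3-4 vs WT, 24 were called lower and 1 higher (median -1.62). With ICM 1-2 and WT fitted alone, 0 of these genes were called, while 0.173% of all genes were. With ICM 3-4 and WT fitted alone, 30 were called lower and 3 higher, while 47% of all genes were called. The lowest in ICM 1-2 was TROAP, a spindle-associated protein, at -5.17 (SE 0.49), and the highest was MIS12, a kinetochore subunit, at 0.80 (SE 0.57). In ICM 3-4, NEK2, a centrosomal kinase, had 0 counts against 248 in WT, at least 58.2-fold lower. MIS12 was the 1 gene called higher there in the fit of all libraries, at 1.82 (SE 0.59, adjusted p = 0.0388). In the core of the APC/C, which CDC20 and UBE2C serve as co-factors, 1 of 14 subunits was called lower in each comparison. These were ANAPC2 at -1.05 (adjusted p = 0.0223) in ICM 1-2 and ANAPC4 at -1.22 in ICM 3-4, and the medians were 0.33 and 0.54. With the compared libraries fitted alone, 0 of the 14 were called in ICM 1-2. In ICM 3-4 that fit called 1 lower and 8 higher, while 47% of all genes were called. Of 10 genes of the gamma-tubulin ring, which nucleates microtubules, TUBG1 was called lower in ICM 1-2 (-1.01) and TUBGCP4 higher in ICM 3-4 (1.08), with medians of -0.40 and -0.33. Its lowest and highest values were MZT1 at -1.20 and TUBGCP5 at 0.37 in ICM 1-2, and TUBGCP5 at -2.08 (3 against 16 counts) in ICM 3-4.

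Of 12 genes of the MuvB core, the pocket proteins and their E2F partners, 2 were called lower in ICM 1-2 vs WT, TFDP1 at -1.51 (SE 0.24) and E2F5 at -1.35 (SE 0.34), and the highest was LIN54 at 0.64 (SE 0.26). In ICM 3-4 vs WT, 4 were called lower, with E2F5 lowest at -2.53, and 2 higher, LIN37 at 1.75 and LIN52 at 1.14. The medians were 0.04 and 0.05. Of the activator and atypical E2Fs, E2F8, a repressor that is itself cell-cycle regulated, had 0 counts in ICM 1-2 against 89 in WT, at least 43.7-fold lower, whereas E2F7 stood at 1.26 (SE 0.52, adjusted p = 0.127) and was called higher at 2.08 (SE 0.53, adjusted p = 0.0165) in ICM 3-4. The CDK inhibitors went in both directions. CDKN1A, which encodes p21, was at 1186 and 1225 CPM in WT, against 1529, 6974, 10803 and 13084 CPM in ICM 1 to 4, with log2 fold changes of 1.64 (SE 0.69, adjusted p = 0.139) and 3.06 (SE 0.73, adjusted p = 0.0127). ICM 1 was thus close to WT for CDKN1A and the other 3 were far above it. CDKN1C, encoding p57, was at 4.47 and 2.91 CPM in WT, against at most 0.158 CPM in ICM, and was called lower in both comparisons.

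**Figure D5:**
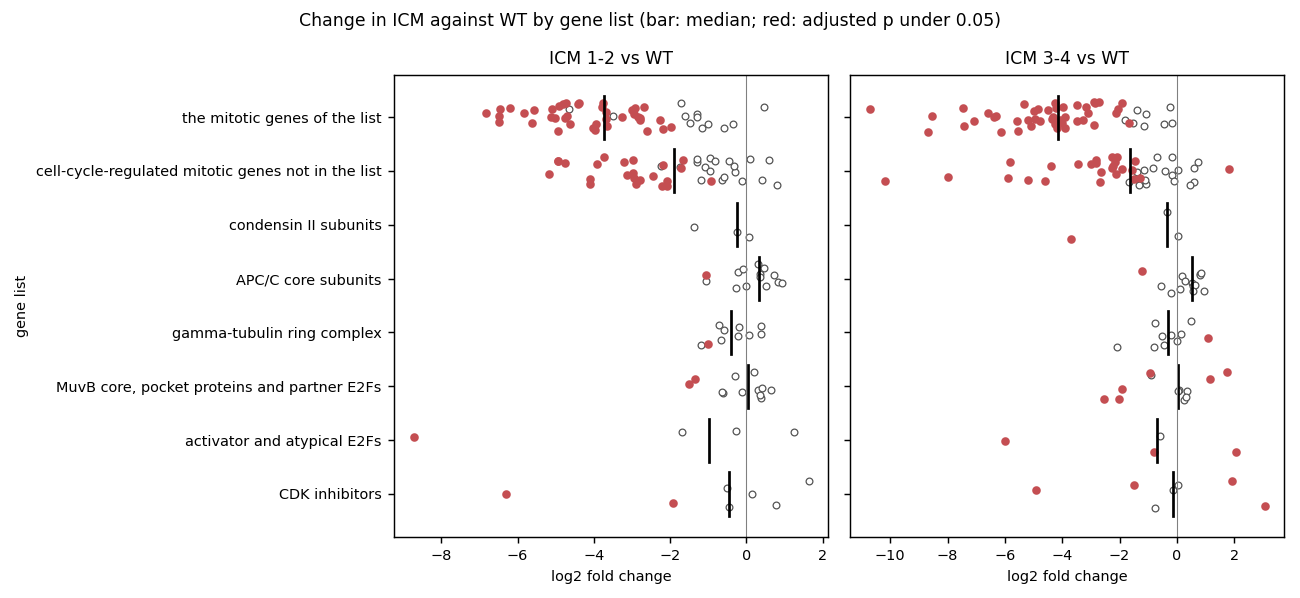
Fitted log2 fold change (horizontal axis) of the mitotic genes and of 7 related gene lists (vertical axis) in ICM 1-2 vs WT (left) and ICM 3-4 vs WT (right), with red points for an adjusted p under 0.05 and a bar at each median. The mitotic genes have medians of -3.73 and -4.13 and the APC/C core has medians of 0.33 and 0.54. Fitted values of genes with 0 counts in ICM (KIF18B, SPC25, NEK2, E2F8) have no defined size.

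Knockdown of HMGB2 in untreated cells left the mitotic genes near WT. Their CPM summed to 835 and 863 in siHMGB2, against 851 and 917 in WT. Of 52 genes, 0 were called, 0 had an unadjusted p under 0.05 and DESeq2 called 0, while 0% of all genes were called by edgeR's quasi-likelihood test. The log2 fold changes ran from -0.30 to 0.82 around a median of 0.00, with 26 genes on each side. The highest among genes of at least 1 CPM were CCNA2, at 18.5 and 19.1 CPM in WT and 25.1 and 27.2 CPM in siHMGB2, and MYBL2, at 6.41 and 8.18 CPM in WT and 8.46 and 11.3 CPM. The log2 fold changes of these 2 genes were 0.53 (SE 0.42) and 0.50 (SE 0.63). With siHMGB2 and WT fitted alone, CCNA2 was called higher (0.54, SE 0.15, adjusted p = 0.0112), while 10.7% of all genes were called. In that edgeR fit FOXM1 (0.42, unadjusted p = 0.0147) and MYBL2 (0.51, unadjusted p = 0.0152) were also under 0.05 before adjustment and were not called. The lowest were HJURP at -0.30 (SE 0.50) and ECT2 at -0.28 (SE 0.28). ECT2 was at 30.2 and 27.98 CPM in siHMGB2, against 36.4 and 37.0 CPM in WT. The fibroblast markers summed to 36065 to 43423 CPM in siHMGB2, above WT, and their part was not tested.

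ICM and HMGB2 knockdown were compared with each other directly, since both comparisons with WT share the same 2 libraries. In ICM 1-2 vs siHMGB2, 42 of 52 mitotic genes were called lower and 0 higher, while 15.3% of all genes were called, 7.52% as lower and 7.76% as higher. The median log2 fold change was -3.69, against 0.11 for all genes. With these 4 libraries fitted alone, 16 genes were called, while 0.727% of all genes were, and the median was -3.63. The 10 genes not called were AURKA, CCNB1, CDC25C, CENPE, ECT2, KIF11, NCAPD2, RACGAP1, SMC2 and SMC4. HMGB2 itself was at 8.13, 9.60, 7.65 and 11.5 CPM in ICM 1 to 4, between WT and siHMGB2.

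Between the 2 sets of ICM libraries, mitotic genes were called lower at a share near that of all genes. In ICM 3-4 vs ICM 1-2, 6 of 52 genes were called lower and 0 higher, while 19.5% of all genes were called, 11% as lower and 8.53% as higher, so 6 of 52 is near the share of all genes called lower. CENPI was at 2.58 and 1.71 CPM in ICM 1 and 2 against 0.0837 and 0.197 CPM in ICM 3 and 4. Its log2 fold change was -4.02 (SE 0.52, adjusted p = 0.00136), and it was not called with ICM 1-4 fitted alone (adjusted p = 0.0688). ECT2 followed with 24.96 and 38.7 CPM against 10.2 and 17.5 CPM (-1.31, SE 0.28, adjusted p = 0.0113). For SPC24, 53 counts in ICM 1-2 stood against 1 in ICM 3-4, a ratio of 25.3 (95% Clopper-Pearson interval 4.35 to 1020). DLGAP5, TTK and MELK were called with log2 fold changes of -2.96, -1.85 and -1.72. With ICM 1-4 fitted alone, 0 of the 52 genes were called and 5 had an unadjusted p under 0.05, while 1.25% of all genes were called. DESeq2 called 9 of the 52 in the fit of all libraries, while it called 28.5% of all genes. The median log2 fold change was -0.46, against -0.11 for all genes. Without ICM 1, 2, 3 and 4 in turn, it became -0.27, 0.18, -0.21 and -0.67. For all genes it became -0.05, -0.02, -0.12 and -0.14.

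The knockdowns in treated cells gave no called mitotic gene. In the libraries labelled siSRRM2 vs ICM 1-2, edgeR called 0 of 52 and 3 had an unadjusted p under 0.05, while 0.178% of all genes were called. DESeq2 called 0 of the 52, while it called 3.8% of all genes. The summed CPM was 210 and 205 in the libraries labelled siSRRM2, between ICM 1 (164) and ICM 2 (273). The median log2 fold change was -0.43, against -0.10 for all genes, and it became 0.13 without ICM 2. CENPK had 0.562 and 0.649 CPM after this knockdown against 0.676 and 2.51 CPM in ICM 1 and 2 (-1.36, SE 0.56, adjusted p = 0.399). CENPE was at 2.65 and 2.27 CPM against 2.01 and 9.14 CPM, within the spread of the ICM libraries. At the upper end, NCAPD2 was at 41.0 and 39.4 CPM against 34.9 and 15.7 CPM, and AURKA at 15.5 and 14.2 CPM against 5.61 and 18.0 CPM. CDK1 was at 0.562 and 0.584 CPM against 0.225 and 0.203 CPM (log2 fold change 1.40, SE 0.42, adjusted p = 0.239 in edgeR's quasi-likelihood test). CDK1 was named after its values were seen.

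In the libraries labelled siBANF1 vs ICM 1-2, edgeR called 0 of 52 and 2 had an unadjusted p under 0.05, while 0% of all genes were called. DESeq2 called 0 of the 52, while it called 0.125% of all genes. The summed CPM of 165 and 264 was close to that of ICM 1 and 2 in turn. The median log2 fold change was -0.15, and it became 0.32 without ICM 2 and 0.17 without the first library labelled siBANF1. ANLN was at 1.34 and 4.22 CPM against 3.57 and 5.60 CPM in ICM 1 and 2, and MELK at 0.761 and 3.33 CPM against 2.89 and 2.71 CPM. NCAPD2 was at 46.8 and 19.6 CPM against 34.9 and 15.7 CPM, and KIF14 at 2.26 and 0.772 CPM against 0.779 and 1.05 CPM. Taken as unpaired libraries, those labelled siBANF1 overlapped ICM 1-2 for each of these 4 genes. Same-numbered libraries deviated together, however, with a correlation of 0.81, though the labels state no shared culture. Taken by number, ANLN was lower and NCAPD2 higher than ICM in each pair, and MELK and KIF14 went in opposite directions between the pairs. These 4 genes were picked as the highest and lowest by log2 fold change, so a like direction in both pairs is not read as a result.

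In siCTCF vs ICM 3-4, 0 of 52 were called, 2 had an unadjusted p under 0.05 and DESeq2 called 0, while 0% of all genes were called. The summed CPM was 158 and 234 in siCTCF and 149 and 239 in ICM 3 and 4, and the median log2 fold change was 0.08, ranging from -0.25 to 0.45 when single libraries were left out. NUSAP1 was at 3.85 and 2.24 CPM against 1.84 and 1.62 CPM in ICM 3 and 4, with both siCTCF libraries above both ICM libraries (0.82, SE 0.39, adjusted p = 1). KIF14 was at 1.61 and 1.72 CPM against 0.753 and 1.38 CPM. KIF20A was at 1.30 and 1.72 CPM against 1.76 and 2.72 CPM, and TPX2 at 6.45 and 5.90 CPM against 7.36 and 8.04 CPM. These 4 genes were picked as the highest and lowest by log2 fold change. That the groups did not overlap for them is thus not read as a result, and none passed the threshold. The 2 genes with an unadjusted p under 0.05 were KIF18B, with 8 counts in siCTCF against 0 in ICM 3-4 (at least 2.68-fold higher), and PBK, with 0 against 5 (at least 1.66-fold lower). CTCF itself was at 23.0 CPM in 1 of the 2 siCTCF libraries and at 71.5 CPM in the other.

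Within some pairs of libraries of the same group, many mitotic genes differed in level, in both directions. ICM 2 exceeded ICM 1 for 34 of the 53 genes and was lower for 18, with a median of 1.63-fold over 50 genes with counts in both. Of all genes at 1 CPM or more, 59.6% were higher in ICM 2. ICM 4 exceeded ICM 3 for 38 genes (median 1.75-fold, against 55.3% of all genes). The second library labelled siBANF1 exceeded the first for 36 genes (median 1.90-fold, against 59.1% of all genes), and the second siCTCF library exceeded the first for 38 (median 1.53-fold, against 58.4%). On the log2 scale, the medians of these pairs in turn were 0.70, 0.81, 0.92 and 0.61. For all genes at 1 CPM or more in both libraries they were 0.26, 0.06, 0.24 and 0.08. The mitotic genes were taken at any level, many of them under 1 CPM, so their counts and medians stand beside those of all genes at unlike thresholds. In WT, the second library likewise exceeded the first for 36 genes (against 53.4% of all genes), so the counts do not set treated libraries apart from WT, but the median there was 1.08-fold. The medians were 1.04-fold in siHMGB2 and 0.969-fold in the libraries labelled siSRRM2. The share of reads given to no gene moved with part of this: it was 35.2% in ICM 1 and 26.5% in ICM 2, 41.8% and 28.4% in the libraries labelled siBANF1, 13.1% and 14.3% in ICM 3 and 4, and 17.5% and 17.9% in WT. Its part in these differences was not tested. As an example, KIF11 had 1.25 CPM in ICM 1, 9.38 CPM in ICM 2, 0.786 and 8.63 CPM under the label siBANF1, and 4.36 and 4.13 CPM under the label siSRRM2. KIF11 was chosen for this after its values were seen.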

How the data were processed

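RNA was sequenced from 14 libraries of IMR90 fibroblasts in 6 labelled groups. The authors deposited 1 table of raw counts per library, made with STAR 2.7.3a and HTSeq 0.12.4 on hg38 with DESeq2 1.36.0 also named, per the submitters' processing notes. The annotation release and strand setting are not given in the sources used here. The 5 closing lines of each table that name no gene were left out of library sizes, and they held 12.75% to 41.78% of reads. CPM was computed on the remaining counts of 54628 symbols. Differential expression was tested with edgeR 4.0.16 (quasi-likelihood F-test, TMM scaling, R 4.3.3) in 1 fit of all 14 libraries with 7 cells (ICM split in ICM 1-2 and ICM 3-4) and 7 residual degrees of freedom, over 19126 genes that passed the filter on low counts, with Benjamini-Hochberg adjustment over all of them. DESeq2 1.42.0, other scalings, no filter, fits of the compared libraries only, a replicate block and leaving out each library were alternatives. Where a group had 0 to 3 counts, ratios were given from summed counts, with a floor of 3 counts over the group and 95% Clopper-Pearson intervals. Intervals and floors cover counting error only. The code was tested on simulated data.

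The 53 genes and the other lists were chosen with earlier results of these data known. Values in each library were printed for the gene of each of 10 role classes with the highest WT CPM, the 3 lowest and 3 highest by log2 fold change in ICM 1-2 and in ICM 3-4 vs WT, and, in the other comparisons, the genes called or, with none or more than 6 called, the 2 lowest and 2 highest among genes of at least 1 CPM. Of the other lists, the lowest and highest tested gene were named. Further genes given in values were chosen after their values were seen.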

Additional observations from a re-analysis of the deposited data

Results flagged for a closer look

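Among the 4 ICM libraries, 6 of 52 mitotic genes had 1 library apart from the other 3 by Dixon's test at the 95% level, where chance alone flags about 1 in 20 groups. CDK1 was at 0.0418 CPM in ICM 3 against 0.197 to 0.225 CPM in the others, and BIRC5 at 0.125 CPM in ICM 3 against 0.368 to 0.410 CPM. These rest on few reads, with 1 count of CDK1 and 3 of BIRC5 in ICM 3, so a difference beyond counting error is not shown for them. FOXM1 was at 1.30 CPM in ICM 3 against 0.332 to 0.492 CPM, so ICM 3 was the low library for the first pair and the high one for FOXM1. KIF4A was at 0.492 CPM in ICM 1 against 0.0788 to 0.0921 CPM, and TPX2 at 2.29 CPM in ICM 1 against 7.28 to 8.04 CPM. SPC25 was at 0.0184 CPM in ICM 2, which is 1 count, and at 0 in the others.

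The level of 6 of 52 genes differed between the 2 sets of ICM libraries by edgeR's quasi-likelihood test of ICM 3-4 vs ICM 1-2, near the 11% of all genes called lower, and 0 were called with the ICM libraries fitted alone. The second set has no WT libraries, so this is no test of a difference in the effect of ICM. The log2 fold changes were -4.64 for SPC24, -4.02 for CENPI, -2.96 for DLGAP5, -1.85 for TTK, -1.72 for MELK and -1.31 for ECT2. The labels of the 2 sets differ in form, and set and library depth cannot be told apart here.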

How the results depend on the processing

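Of the counts called, medians and summed CPM recomputed under settings other than leaving out a library, 128 values stayed alike, meaning within 1.5 times for a count and within the SD between replicates for a median or sum, and 15 did not. With the compared libraries fitted alone, the genes called were 5 in ICM 1-2 vs WT, 1 in siHMGB2 vs WT, 0 in ICM 3-4 vs ICM 1-2 and 16 in ICM 1-2 vs siHMGB2. Of all genes, 0.173%, 10.7%, 1.25% and 0.727% were called in these fits in turn. Total count scaling gave medians of -0.055 in siHMGB2 vs WT and -3.45 in ICM 1-2 vs siHMGB2. It gave 3 calls in ICM 3-4 vs ICM 1-2, while 18.3% of all genes were called. It also turned SMC2 (0.023) and AURKA (0.071) in ICM 3-4 vs WT, and it moved the median of all genes from -0.02 to 0.18 there and from 0.11 to 0.30 in ICM 1-2 vs siHMGB2. An adjusted p of 0.01 left 1 call in ICM 3-4 vs ICM 1-2, while 6.1% of all genes were called. ICM 1-4 as 1 group, chosen after seeing the data, gave a median of -3.93. With TMM library sizes the summed CPM was 958 in WT, 955 in siHMGB2 and 204 in the libraries labelled siSRRM2. The cause of these shifts was not tested.

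Leaving out 1 library gave 28 to 39 calls and medians of -4.23 to -3.36 in ICM 1-2 vs WT, 34 to 39 and -4.46 to -3.88 in ICM 3-4 vs WT, 1 to 11 and -0.67 to 0.18 in ICM 3-4 vs ICM 1-2, and 29 to 40 and -4.16 to -3.59 in ICM 1-2 vs siHMGB2. Calls were 0 throughout in the other comparisons, with medians of -0.054 to 0.042 for siHMGB2 vs WT, -0.51 to 0.13 for siSRRM2, -0.82 to 0.32 for siBANF1 and -0.25 to 0.45 for siCTCF. The log2 fold change of SMC2 ran from -0.12 (without ICM 2) to 0.86 in ICM 1-2 vs WT and from -0.84 to 0.19 (without ICM 3) in ICM 3-4 vs WT, and that of AURKA from -0.39 to 0.016 (without ICM 3) in ICM 3-4 vs WT.

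The labels give replicate numbers that do not state a shared culture. Deviations of same-numbered libraries correlated at 0.81 for siBANF1 and ICM 1-2, at 0.48 for siCTCF and ICM 3-4, and at -0.08 to 0.15 in the other comparisons. With the replicate number as a block, 40 genes were called in ICM 1-2 vs WT, while 11.4% of all genes were. The block gave 43 calls in ICM 3-4 vs WT, while 26% of all genes were called. In ICM 3-4 vs ICM 1-2 it gave 6, while 21.4% of all genes were called. The median in ICM 1-2 vs siHMGB2 was -3.89 with the block. In siBANF1 vs ICM 1-2 the block called 0, while 0.131% of all genes were called, and raised the genes with an unadjusted p under 0.05 from 2 to 6. With the block and the compared libraries alone, 43 genes were called in ICM 1-2 vs WT, against 5 without the block, while 7.56% of all genes were called. In ICM 1-2 vs siHMGB2 there were 42, against 16, while 7.64% of all genes were called. In the same fits 1 gene was called in siHMGB2 vs WT, while 12% of all genes were, and 1 in ICM 3-4 vs ICM 1-2, while 14.4% were. Depth limits genes with a few counts in ICM (SPC24, SPC25, DLGAP5, KIF18B, PBK), for which ratios span wide intervals.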
